A study of Mus musculus with 100 samples.

Results

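The colony stimulating factor genes and their receptor genes were followed across every factor and histone mark that was profiled. The members were the 3 ligand genes Csf1 (M-CSF), Csf2 (GM-CSF) and Csf3 (G-CSF) and the 4 receptor genes Csf1r, Csf2ra, Csf2rb and Csf3r. They were found as all rows of the 15 tables whose nearest gene, as the authors annotated it, was 1 of these 7 genes. This gave 501 of 610301 rows for 7 of 18524 genes: 103 for Csf1, 27 for Csf2, 45 for Csf3, 123 for Csf1r, 83 for Csf2ra, 64 for Csf2rb and 56 for Csf3r. Of the 501 rows, 40 were H3K27ac regions and the others were factor peaks. Peaks of different factors whose centres were joined by steps of at most 200 bp were treated as 1 element, which gave 99 elements (108 with steps of 100 bp and 77 with steps of 500 bp). Of these 99 elements, 30 held a peak in 1 factor table only and 37 in 6 tables or more. Elements are named by their distance from the start site of the gene, negative upstream and positive downstream.

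Chromatin occupancy was measured by ChIP-seq in bone marrow-derived macrophages (BMDMs) of C57BL/6 mice aged 8 to 12 weeks. Every group had 2 libraries. Wild type BMDMs received vehicle (Veh) or, for 6 h, KLA (Kdo2-lipid A), which activates the endotoxin receptor TLR4. They were used for the corepressor NCoR, the histone deacetylase HDAC3, the NF-κB subunit p65, the AP-1 factor Fosl2, the macrophage lineage factor PU.1, the coactivator PGC1β, the kinase ERK1 and the acetyltransferase p300. The Veh libraries of p300 are described as 0 h of KLA. PGC1β was profiled again with the solvent DMSO and Veh, DMSO and KLA, or the ERK inhibitor LY3214996 (ERKi) and KLA, and NCoR with ERKi and KLA, for which the labels give no KLA time. The histone mark H3K27ac, found at active enhancers and promoters, was mapped in NCoR flox/flox BMDMs (called WT in that experiment) and NCoR flox/flox, LysMCre BMDMs (NKO) with Veh or KLA. It was also profiled in PGC1b flox/flox BMDMs (Pgc1b flox) and PGC1b flox/flox, LysMCre BMDMs (Pgc1b flox Cre) with Veh or KLA, and in Wild type BMDMs with DMSO and Veh, DMSO and KLA, or the HDAC3 inhibitor RGFP966 and KLA. LysMCre deletes floxed alleles in cells of the myeloid lineage. ERK1 and p300 were profiled in Wild type bone marrow cells at day 0 (osteoclast precursors) and day 4 of osteoclast differentiation with RANKL. M-CSF, the product of Csf1, was used to grow all these cultures. The methods list none in the low serum medium that BMDMs received before treatment.

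Colony stimulating factors are secreted glycoproteins that control the survival, proliferation and maturation of myeloid cells. M-CSF binds the receptor tyrosine kinase Csf1r, which also binds IL-34 and is required for most tissue macrophages and for osteoclasts. GM-CSF binds its own α chain, Csf2ra, which pairs with the common β chain Csf2rb, a subunit that the receptors for IL-3 and IL-5 also use, and G-CSF binds the homodimer of Csf3r that drives neutrophil production. Macrophages express Csf1r and the GM-CSF receptor at rest, under the control of PU.1, while the GM-CSF and G-CSF genes are known as targets of endotoxin and NF-κB.

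The windows below carry the results that follow, read from the mm10 reference genome (plus strand) and given 5′ to 3′. Each is the 200 bases around a peak centre, and the capitals mark matches to 1 of 7 consensus motifs searched on both strands: NF-κB (GGNNNTTCC), AP-1 (TGANTCA), CRE (TGACGTCA), PU.1 (GAGGAAG), C/EBP (TTGCNNAA), an ISRE core (GAAANNGAA) and RUNX (TGTGGT). The Csf3r -20.3 kb window (chr4:126004225-126004424, intergenic) is shown because all 8 factors were higher at its element with KLA, and it holds an ISRE core match. The ERK1 peak of that element (chr4:126003894-126004167) lies outside the window. The Csf2 +12.7 kb element (chr11:54237118-54237317, intron of Gm12223) is the most widely bound Csf2 element and holds PU.1, C/EBP and NF-κB matches, in that order. The Csf1 -15.5 kb element (chr3:107775825-107776024, intron of Gm40121) gained binding with KLA and holds overlapping NF-κB matches on both strands. The Csf1 -13.7 kb element (chr3:107774056-107774255, intron of Gm40121) lost binding with KLA and holds no match. The Csf3 +8.1 kb element (chr11:98709319-98709518, intron of Med24) is where H3K27ac differed by NCoR genotype, and it holds a PU.1 match. The Csf2rb +8.6 kb element (chr15:78334491-78334690, intron of Csf2rb) gained p65 and holds an AP-1 match followed by 2 NF-κB matches.
Csf3r -20.3 kb: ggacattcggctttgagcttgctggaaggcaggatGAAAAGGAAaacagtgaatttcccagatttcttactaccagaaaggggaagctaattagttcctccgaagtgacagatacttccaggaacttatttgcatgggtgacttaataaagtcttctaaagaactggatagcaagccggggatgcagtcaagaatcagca
Csf2 +12.7 kb: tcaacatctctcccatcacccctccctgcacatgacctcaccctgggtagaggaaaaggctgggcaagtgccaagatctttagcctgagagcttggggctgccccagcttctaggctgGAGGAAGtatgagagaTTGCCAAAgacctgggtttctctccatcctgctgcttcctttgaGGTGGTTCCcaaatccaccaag
Csf1 -15.5 kb: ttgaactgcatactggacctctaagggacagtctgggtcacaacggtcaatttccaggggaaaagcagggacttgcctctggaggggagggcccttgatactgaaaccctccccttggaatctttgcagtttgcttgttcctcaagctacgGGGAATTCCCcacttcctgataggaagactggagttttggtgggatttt
Csf1 -13.7 kb: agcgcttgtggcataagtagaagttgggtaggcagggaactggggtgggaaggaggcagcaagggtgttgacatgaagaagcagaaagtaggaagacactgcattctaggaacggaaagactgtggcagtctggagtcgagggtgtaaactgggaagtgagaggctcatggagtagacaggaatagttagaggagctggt
Csf3 +8.1 kb: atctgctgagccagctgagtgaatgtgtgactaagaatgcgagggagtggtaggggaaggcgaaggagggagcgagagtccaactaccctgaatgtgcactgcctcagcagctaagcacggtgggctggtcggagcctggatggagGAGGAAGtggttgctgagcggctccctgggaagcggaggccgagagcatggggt
Csf2rb +8.6 kb: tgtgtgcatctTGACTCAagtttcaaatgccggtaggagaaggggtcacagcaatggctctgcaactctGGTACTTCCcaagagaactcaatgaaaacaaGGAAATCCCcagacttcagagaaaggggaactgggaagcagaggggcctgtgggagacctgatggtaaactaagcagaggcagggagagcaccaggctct

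The 250 bases before the RefSeq start sites of Csf1 (chr3:107760470-107760719, minus strand) and Csf3r (chr4:126024409-126024658, plus strand) are shown because HDAC3 and p65 rose at both promoters. Each is given on the strand of its gene, and each holds 1 NF-κB match, followed in Csf3r by 1 PU.1 match. The factor peaks of these promoter elements span chr3:107760137-107760512 and chr4:126024535-126024903, so the windows cover them only in part. The NF-κB match of Csf1 lies outside the peaks of its element.
Csf1 promoter: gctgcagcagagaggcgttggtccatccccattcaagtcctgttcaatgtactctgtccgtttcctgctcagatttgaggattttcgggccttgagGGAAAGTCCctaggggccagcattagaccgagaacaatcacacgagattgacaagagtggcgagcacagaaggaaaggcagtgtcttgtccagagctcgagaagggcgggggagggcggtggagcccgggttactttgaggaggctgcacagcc
Csf3r promoter: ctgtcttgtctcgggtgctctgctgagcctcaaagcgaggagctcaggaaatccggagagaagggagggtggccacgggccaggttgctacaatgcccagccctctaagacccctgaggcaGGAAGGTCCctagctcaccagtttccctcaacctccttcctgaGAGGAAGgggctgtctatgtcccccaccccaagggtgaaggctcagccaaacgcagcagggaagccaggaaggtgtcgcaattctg

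All values below are tags per 10 M tags of a library (library totals 4.30 to 21.5 M) and log2 fold changes are written as log2 and the value ± SE with Benjamini-Hochberg adjusted p-values over all rows of the table. A peak was called when the adjusted p was below 0.05 and the change exceeded 2-fold. Libraries were scaled by their total tags, and under this scaling the median peak of a whole table moved by log2 1.46 for p65, 0.65 for p300, 0.45 for PGC1β with DMSO, -0.41 for PU.1, -1.20 for NCoR with ERKi and 1.84 for p300 at day 4. It moved by 0.10 for NCoR, 0.27 for HDAC3, -0.14 for Fosl2, 0.06 for PGC1β without solvent and 0.26 for ERK1, and a member's change should be read against these values. Calls that a scaling to the bulk of the peaks (trimmed mean of M-values, TMM) does not keep are named beside the result. Regions at the start sites of macrophage markers were present for 5 to 8 of 8 genes in the BMDM tables of H3K27ac and p300, with none for the 4 T cell, 4 B cell or 4 fibroblast markers. Of 5 neutrophil markers, 1 to 2 had a region. Each comparison was refitted without 1 library at a time, and where such a fit lost a call the library left out is named with its value. In ChIP of bulk cultures, a change in the share of cells bound and a change in binding per cell cannot be told apart. The H3K27ac region at the Ncor1 start site held 58.3 and 70.2 tags per 10 M in NKO cells with Veh and 51.7 and 44.8 in WT, so the mark there does not measure the deletion.

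KLA was followed by both gains and losses of binding around these genes, with mainly gains at Csf3, Csf3r, Csf2 and Csf2rb and a mixture of both at Csf1 and Csf1r. In the 8 KLA experiments without solvent, 91 elements held a peak, 35 were higher in at least 1 experiment, 13 were lower in at least 1, none was both, and 43 were not called. Of the 13 Csf3r elements, 9 were higher and none lower, while of the 18 Csf1r elements 4 were higher and 6 lower, and of the 18 Csf1 elements 7 were higher and 4 lower. Of the 16 Csf2ra elements, 1 was higher and 2 were lower. Elements were not built for other genes, so these counts have no background share and describe these loci only.

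**Figure D1:**
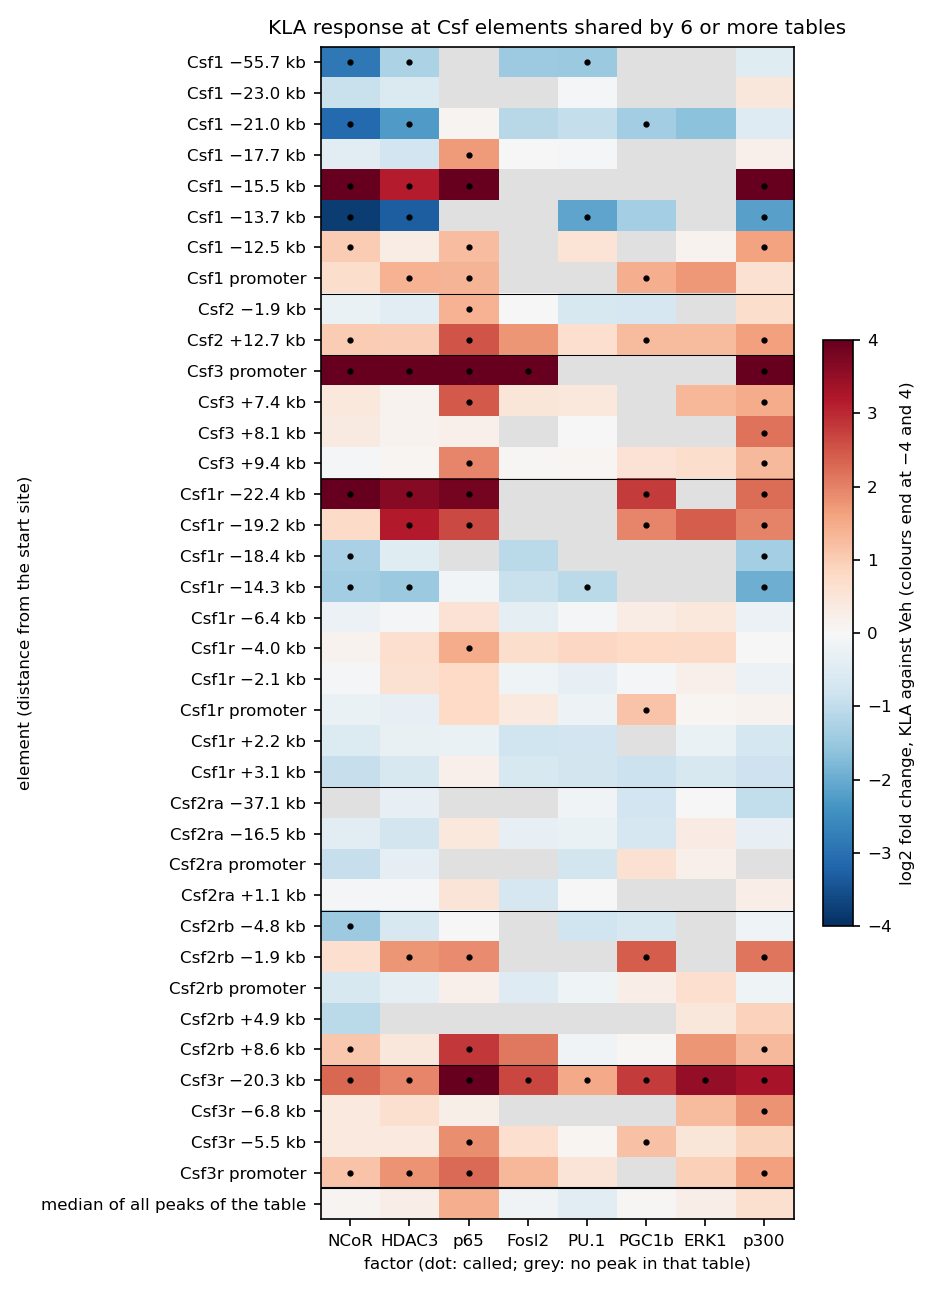
Log2 fold change of KLA against Veh (colour) at the 37 elements with a peak in 6 or more factor tables (rows, by gene and distance from the start site) in the 8 KLA experiments (columns); a dot marks a called peak and grey marks no peak in that table. The Csf3r -20.3 kb row is red with a dot in all 8 columns, whereas the Csf1 -13.7 kb and -21.0 kb rows are blue for NCoR and HDAC3.

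By factor, 12 of 51 NCoR peaks at the members were higher with KLA and 7 lower, against 23.4% and 16.7% of all NCoR peaks. For HDAC3, 12 of 49 were higher and 4 lower (27.5% and 11.3% of all peaks). For p65, 20 of 38 were higher and none lower (57.0% and 5.43%), and TMM scaling divided them into 9 higher and 9 lower. These shares lay near the background of each table. For p300, 26 of 64 were higher and 7 lower (42.1% and 12.9%). Among the ligands 12 of 22 p300 peaks were higher and 1 lower, and among the receptors 14 of 42 were higher and 6 lower. For Fosl2, 2 of 25 were higher and none lower (11.4% and 4.19%). For PU.1, 1 of 43 was higher and 5 lower (4.53% and 21.7%), which TMM scaling turned into 4 and 3. For PGC1β, 8 of 31 were higher and 1 lower without solvent (16.4% and 6.35%), and 7 of 47 were higher and none lower with DMSO (16.4% and 1.23%). For ERK1, 1 of 30 was higher and none lower (10.3% and 2.53%).

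Some of these counts changed when 1 library was left out, a fit that leaves 1 library in its group. For each changed count given next, the calls of the whole table moved in the same direction. These changes are therefore not particular to the members. The NCoR calls numbered 6 without KLA replicate 1 and 7 without KLA replicate 2, those of HDAC3 8 without Veh replicate 1 and 9 without Veh replicate 2, and those of p65 13 and 12 without KLA replicate 1 and 2. Fosl2 had no member call without either Veh replicate and 6 or 7 without KLA replicate 1 or 2. PGC1β had 3 without Veh replicate 2 and, with DMSO, 3 without either DMSO Veh replicate 1 or DMSO KLA replicate 1. ERK1 had 2 and 3 calls without Veh replicate 1 and 2, and none without KLA replicate 1. For PU.1 and p300 no library moved the count by more than 1.5 times. The 2 KLA libraries of HDAC3 and of Fosl2 lay farther apart than those of any other group: their squared differences over peaks averaged 9.48 and 12.8 times the counting variance, against 1.36 to 5.09 in the others.

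Csf1 encodes the cytokine on which macrophages depend for survival. Around it, elements at -13.7, -21.0 and -55.7 kb lost NCoR and HDAC3 with KLA, and elements at -15.5 and -1.2 kb gained both, in part where little binding had been measured at rest. The -18.2 kb element gained NCoR, with no HDAC3 peak listed there. The losing and gaining elements alternated along 20 kb of the Gm40121 intron, a noncoding transcript annotated through the upstream region. At the -13.7 kb element NCoR was 332 and 393 with Veh and 29.97 and 22.8 with KLA. Both KLA libraries lay far below both Veh libraries, and NCoR fell (log2 -3.78 ± 0.24, adjusted p = 2.3e-05). HDAC3 was 320.1 and 298 with Veh and 26.96 and 38.6 with KLA (log2 -3.29 ± 0.41, adjusted p = 1.1e-13). PU.1 was 77.6 and 69.7 with Veh and 15.7 and 18.5 with KLA (log2 -2.11 ± 0.23, adjusted p = 1.8e-15). These losses were kept in all fits that left out 1 library. p300 was low at this element, at 14.4 and 26.9 with Veh and 0.511 and 8.65 with KLA, and fell as well (log2 -2.18 ± 0.70, adjusted p = 0.013, lost without KLA replicate 1 at adjusted p = 0.19).

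At the -21.0 kb element NCoR was 301 and 419 with Veh and 40.5 and 42.9 with KLA (log2 -3.11 ± 0.24, adjusted p = 3.2e-05). HDAC3 was 315 and 258 with Veh and 49.8 and 73.8 with KLA (log2 -2.25 ± 0.39, adjusted p = 9.5e-08), and the groups did not overlap for either. PU.1 was 291 and 287 with Veh and 158 and 140.2 with KLA, a difference that stayed under 2-fold (log2 -0.95 ± 0.09, adjusted p = 3.0e-17). PGC1β fell by 1.40 on the log2 scale (26.4 and 31.1 with Veh and 10.9 and 10.9 with KLA, adjusted p = 0.033, lost without Veh replicate 1 at adjusted p = 0.14 or Veh replicate 2 at adjusted p = 0.27). With DMSO it was 35.7 and 21.9 with Veh and 41.4 and 38.7 with KLA, with no call (adjusted p = 0.62). p65 did not pass the test here (log2 0.12 ± 0.40, adjusted p = 0.81), against a table median of 1.46, and was called lower with TMM scaling (log2 fold change -1.13). At -55.7 kb, outside the annotated transcript, NCoR was 71.7 and 87.1 with Veh and 9.72 and 11.8 with KLA (log2 -2.87 ± 0.38, adjusted p = 0.00033). PU.1 was 90.5 and 79.7 with Veh and 28.8 and 31.9 with KLA (log2 -1.49 ± 0.19, adjusted p = 7.7e-12). HDAC3 fell there too, at log2 -1.28 ± 0.43, adjusted p = 0.0098, lost without KLA replicate 1 at adjusted p = 0.12, Veh replicate 1 at adjusted p = 0.21 or Veh replicate 2 at adjusted p = 0.42. In the other direction from the start site, at +31.8 kb, NCoR was 102 and 102 with Veh and 36.4 and 39.4 with KLA (log2 -1.42 ± 0.28, adjusted p = 0.0023, lost without KLA replicate 1 at adjusted p = 0.057).

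The -15.5 kb element was nearly empty in Veh cells and was occupied by 4 factors with KLA. p65 was 2.63 and 2.80 with Veh and 104 and 129 with KLA, so that both KLA libraries lay far above both Veh libraries (log2 5.38 ± 0.45, adjusted p = 4.1e-06). HDAC3 was 2.18 and 4.98 with Veh and 29.9 and 38.6 with KLA (log2 3.15 ± 0.70, adjusted p = 4.6e-05). NCoR was 4.78 and 0 with Veh and 40.5 and 37.4 with KLA (log2 3.97 ± 0.76, adjusted p = 0.0021, lost without KLA replicate 1 at adjusted p = 0.066 or KLA replicate 2 at adjusted p = 0.052). p300 was 3.76 and 0 with Veh and 33.3 and 47.0 with KLA (log2 4.33 ± 0.66, adjusted p = 3.7e-05). These gains were kept with TMM scaling, and no PU.1, Fosl2 or ERK1 peak was listed at this element. This is the window with the overlapping NF-κB matches.

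At -18.2 kb p300 held no tag in either Veh library and 13.3 and 17.3 tags per 10 M with KLA, at least 15.8-fold higher against a floor of 3 tags over the group (adjusted p = 6.3e-05). NCoR was 0 and 2.35 with Veh and 29.2 and 25.6 with KLA, a ratio of 22.97-fold with a 95% counting interval of 6.13 to 193 from 2 tags over both Veh libraries (adjusted p = 0.0018, lost without KLA replicate 1 at adjusted p = 0.13 or KLA replicate 2 at adjusted p = 0.097). At -1.2 kb HDAC3 was 2.91 and 9.40 with Veh and 28.7 and 64.98 with KLA (log2 2.79 ± 0.60, adjusted p = 2.3e-05, lost without Veh replicate 1 at adjusted p = 0.052). NCoR rose there by 1.71 (adjusted p = 0.037, lost without KLA replicate 1 at adjusted p = 0.23 or KLA replicate 2 at adjusted p = 0.62) and p65 by 2.29 (adjusted p = 0.0058, lost without KLA replicate 1 at adjusted p = 0.19 or KLA replicate 2 at adjusted p = 0.21). The p65 call at this element was not kept with TMM scaling. At the Csf1 promoter, in the first exon, HDAC3 was 47.3 and 42.6 with Veh and 97.3 and 140.5 with KLA (log2 1.38 ± 0.38, adjusted p = 0.0012, lost without Veh replicate 1 at adjusted p = 0.21 or Veh replicate 2 at adjusted p = 0.28). p65 there was 24.5 and 26.1 with Veh and 60.1 and 70.5 with KLA (log2 1.36 ± 0.35, adjusted p = 0.0055, lost without KLA replicate 1 at adjusted p = 0.065 or KLA replicate 2 at adjusted p = 0.11), slightly below the median of its table and not called with TMM scaling. PGC1β rose by 1.46 (adjusted p = 0.049, lost without Veh replicate 2 at adjusted p = 0.53), again not with TMM scaling, and NCoR did not pass the fold threshold (log2 0.71 ± 0.25, adjusted p = 0.038). At -12.5 kb p300 was 16.3 and 17.1 with Veh and 47.6 and 53.5 with KLA (log2 1.59 ± 0.33, adjusted p = 0.00062), and NCoR passed at log2 1.03 ± 0.35, adjusted p = 0.034, lost without KLA replicate 1 at adjusted p = 0.15, KLA replicate 2 at adjusted p = 0.29 or Veh replicate 1 at log2 fold change 0.83.

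**Figure D2:**
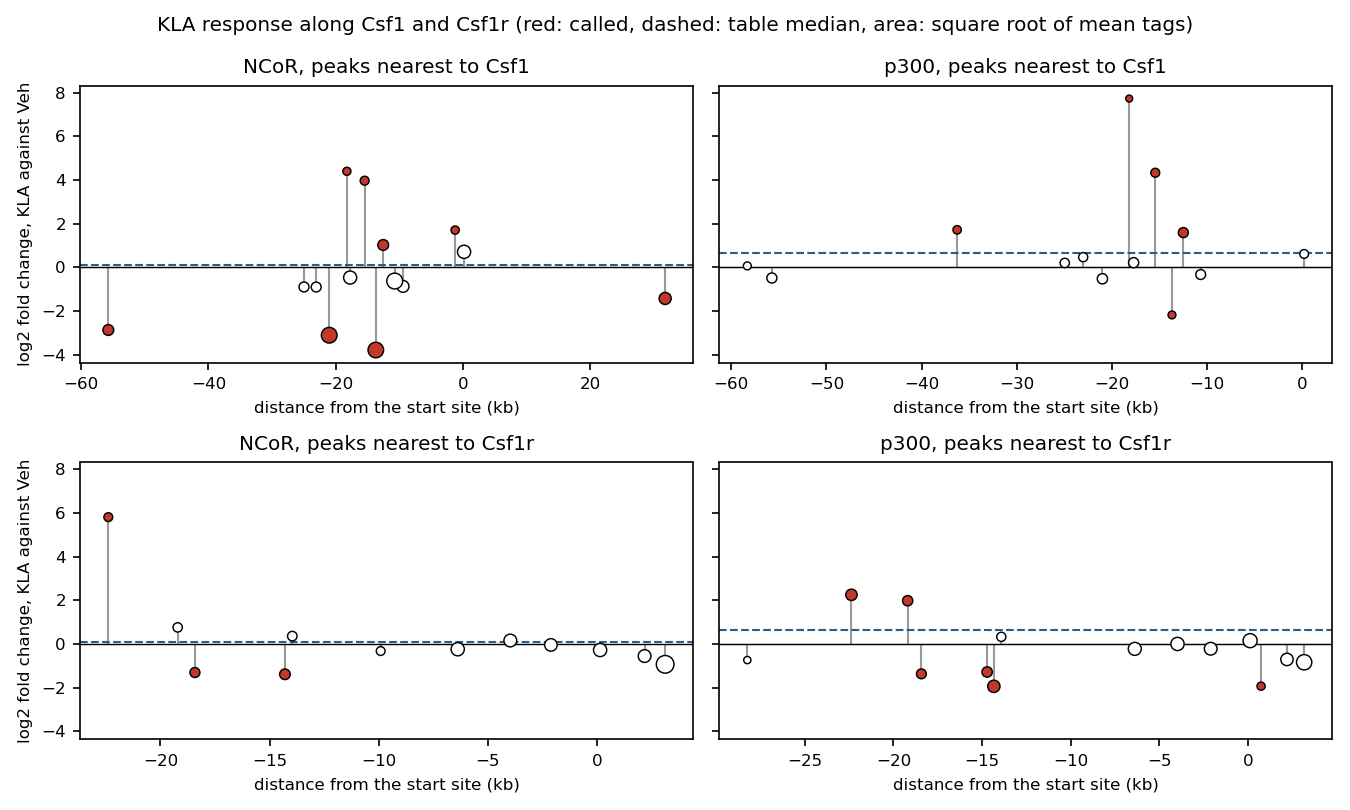
Log2 fold change of KLA against Veh (vertical axis) at every peak nearest to Csf1 and Csf1r against its distance from the start site in kb (horizontal axis), with called peaks in red, the table median dashed and point area as the square root of mean tags. At Csf1, called NCoR gains and losses lie side by side between -21.0 and -12.5 kb. Points from groups with fewer than 4 tags are fitted values that depend on the prior count.

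Csf2 encodes GM-CSF, which stimulated macrophages secrete. No factor peak was listed within 1 kb of its start site, and the element with the most tables was 12.7 kb downstream, where all 8 factors had a peak and 4 were called higher with KLA. p65 was 42.0 and 63.4 with Veh and 299 and 306 with KLA, with both KLA libraries far above both Veh libraries (log2 2.52 ± 0.24, adjusted p = 9.7e-06). p300 was 67.1 and 64.4 with Veh and 183 and 231 with KLA (log2 1.65 ± 0.18, adjusted p = 1.3e-06). NCoR was 70.5 and 113 with Veh and 196 and 175 with KLA (log2 1.01 ± 0.25, adjusted p = 0.0078, lost without KLA replicate 1 at adjusted p = 0.12, KLA replicate 2 at adjusted p = 0.069 or Veh replicate 1 at log2 fold change 0.71). PGC1β was 35.8 and 40.0 with Veh and 106 and 80.1 with KLA without solvent (log2 1.28 ± 0.31, adjusted p = 0.0051, lost without Veh replicate 1 at adjusted p = 0.19 or Veh replicate 2 at adjusted p = 0.13). With DMSO it was 43.9 and 67.0 with Veh and 107 and 150.3 with KLA (log2 1.24 ± 0.35, adjusted p = 0.014, lost without DMSO KLA replicate 2 at adjusted p = 0.15 or DMSO Veh replicate 1 at adjusted p = 0.16), a call that TMM scaling did not keep.

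The other factors at +12.7 kb pointed the same way without passing both thresholds. HDAC3 was 136 and 154 with Veh and 239.7 and 342 with KLA (log2 0.99 ± 0.37, adjusted p = 0.021), just under 2-fold. PU.1 was 119 and 104 with Veh and 186 and 171 with KLA (log2 0.67 ± 0.11, adjusted p = 4.4e-08), against a table median of -0.41, and was called with TMM scaling at 1.09. Fosl2 was 48.0 and 38.8 with Veh and 107 and 187 with KLA (log2 1.77 ± 0.78, adjusted p = 0.11, called with TMM scaling). ERK1 was 26.7 and 42.8 with Veh and 94.7 and 73.5 with KLA (log2 1.25 ± 0.42, adjusted p = 0.068). At -1.9 kb PU.1 was lower by less than 2-fold, at 96.2 and 111 with Veh and 57.6 and 75.2 with KLA (log2 -0.63 ± 0.15, adjusted p = 0.00011). p300 was 33.2 and 28.3 with Veh and 33.3 and 67.6 with KLA (log2 0.71 ± 0.35, adjusted p = 0.084). p65 rose there by 1.40 (adjusted p = 0.012, lost without KLA replicate 1 at adjusted p = 0.098 or KLA replicate 2 at adjusted p = 0.16), a call not kept with TMM scaling. Elements at -4.4 and -7.3 kb held peaks for PGC1β alone. There PGC1β was 118 and 134 with Veh and 197 and 194 with KLA at -7.3 kb with DMSO (log2 0.64 ± 0.27, adjusted p = 0.11), and neither element was called.

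Csf3 encodes G-CSF, the cytokine that mobilizes neutrophils during infection. Its promoter (chr11:98701068-98701344, centred at -104 bp from the start site) went from almost no tags to called gains of 5 of the 8 factors with KLA. No PU.1, PGC1β or ERK1 peak was listed there. p300 was 0.627 and 0.657 with Veh and 168 and 169.7 with KLA, a ratio of 263-fold with a 95% counting interval of 72.6 to 2179 from 2 tags over both Veh libraries (adjusted p = 2.8e-10). p65 was 0.875 and 1.86 with Veh and 100.2 and 79.4 with KLA, a ratio of 66.4-fold with a 95% counting interval of 22.5 to 324 from 3 tags (adjusted p = 8.2e-06). NCoR was 1.19 and 0 with Veh and 26.7 and 25.6 with KLA, a ratio of 44.0-fold with a 95% counting interval of 7.65 to 1764 from 1 tag (adjusted p = 0.0011, lost without KLA replicate 1 at adjusted p = 0.093 or KLA replicate 2 at adjusted p = 0.089). The intervals cover counting error only. HDAC3 was 2.18 and 1.11 with Veh and 27.5 and 73.8 with KLA (log2 4.85 ± 0.74, adjusted p = 1.3e-09). Fosl2 was 7.05 and 0 with Veh and 41.9 and 64.3 with KLA (log2 3.97 ± 1.14, adjusted p = 0.0063, lost without Veh replicate 1 at adjusted p = 0.12 or Veh replicate 2 at adjusted p = 0.81). In each of the 5 tables both KLA libraries exceeded both Veh libraries, and all 5 calls were kept with TMM scaling.

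Downstream of Csf3, inside the Mediator subunit gene Med24, 5 elements between +4.7 and +9.4 kb gained p300. At +5.1 kb, in an exon of Med24, p300 was 1.25 and 3.29 with Veh and 28.6 and 38.9 with KLA (log2 3.86 ± 0.58, adjusted p = 2.9e-05). At +4.7 kb it was 0.627 and 1.97 with Veh and 19.4 and 11.3 with KLA (log2 3.51 ± 0.73, adjusted p = 0.00058, lost without KLA replicate 1 at adjusted p = 0.14). At +8.1 kb it was 8.15 and 16.4 with Veh and 63.9 and 45.9 with KLA (log2 2.16 ± 0.39, adjusted p = 0.00016). The larger p300 peaks at +7.4 kb (67.1 and 59.1 with Veh and 181 and 176 with KLA) and +9.4 kb (79.0 and 106 with Veh and 225 and 231 with KLA) rose by 1.495 and 1.30 (adjusted p = 3.0e-06 and 8.9e-06), and both of these fell short of a call with TMM scaling. p65 rose at +7.4 kb, with 9.63 and 27.03 with Veh and 89.5 and 112 with KLA (log2 2.47 ± 0.42, adjusted p = 0.00048). At +9.4 kb p65 rose as well, with 29.8 and 47.5 with Veh and 142 and 158 with KLA (log2 1.96 ± 0.29, adjusted p = 0.00018, not called with TMM scaling). At +8.1 kb p65 was 29.8 and 33.6 with Veh and 34.7 and 37.6 with KLA (log2 0.19 ± 0.38, adjusted p = 0.67) and was called lower with TMM scaling. PU.1, NCoR and HDAC3 already occupied the +7.4 to +9.4 kb elements in Veh cells and none was called there. At +9.4 kb, for example, PU.1 was 146 and 147 with Veh and 144 and 163 with KLA (log2 0.07 ± 0.11, adjusted p = 0.59). NCoR was 192 and 321 with Veh and 252 and 241 with KLA (log2 -0.06 ± 0.23, adjusted p = 0.85).

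**Figure D3:**
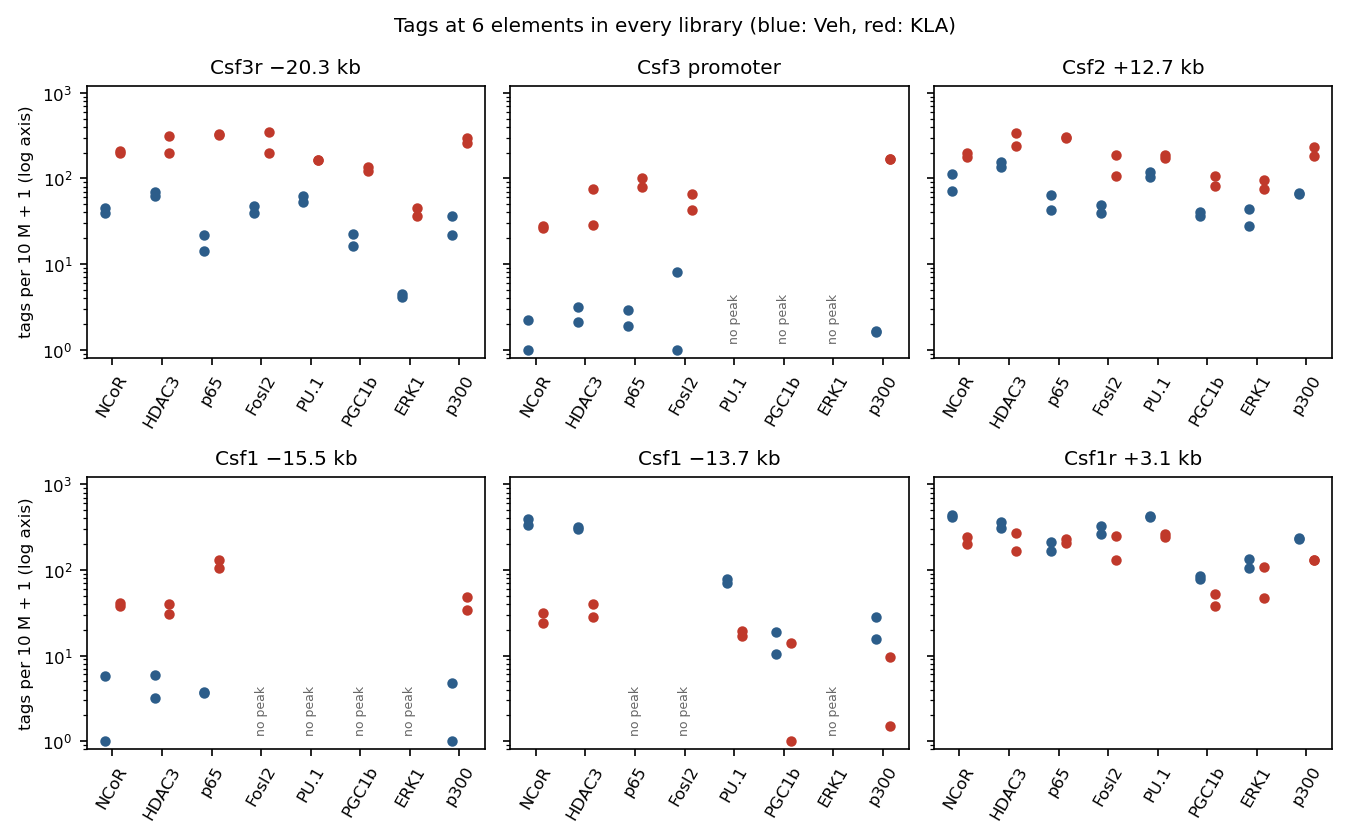
Tags per 10 M + 1 (vertical axis, log scale) of each library with Veh (blue) and KLA (red) for 8 factors (horizontal axis) at 6 elements. At the Csf3r -20.3 kb element the KLA points lie above the Veh points for all 8 factors, and at the Csf3 promoter for the 5 factors with a peak.

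Csf1r encodes the M-CSF receptor, and its second intron holds a well known macrophage enhancer. In mm10 the gene lies on chromosome 18, and the strongest element for most factors was +3.1 kb (chr18:61108471-61108893, intron of Csf1r). With KLA, elements at -22.4 and -19.2 kb gained p65, HDAC3, p300 and PGC1β, elements at -18.4, -14.7, -14.3, -13.4 and +0.7 kb lost binding, and the +3.1 kb element lost less than 2-fold. A lower call for PU.1 at -9.9 kb (log2 -1.02 ± 0.16, adjusted p = 1.6e-08, lost without KLA replicate 2 at log2 fold change -0.92 or Veh replicate 1 at log2 fold change -0.87) was not kept with TMM scaling. At -22.4 kb, in an intron of the neighbouring receptor gene Pdgfrb, p65 was 5.25 and 8.39 with Veh and 91.5 and 105 with KLA (log2 3.83 ± 0.41, adjusted p = 2.0e-05). HDAC3 was 5.09 and 3.87 with Veh and 49.8 and 64.98 with KLA (log2 3.65 ± 0.59, adjusted p = 9.4e-09). p300 was 25.7 and 13.1 with Veh and 85.9 and 99.98 with KLA (log2 2.25 ± 0.30, adjusted p = 1.0e-05). NCoR was 1.19 and 0 with Veh and 50.2 and 29.1 with KLA, a ratio of 65.4-fold with a 95% counting interval of 11.5 to 2609 from 1 tag (adjusted p = 0.00064, lost without KLA replicate 1 at adjusted p = 0.065). PGC1β was 2.94 and 3.72 with Veh and 31.7 and 17.2 with KLA (log2 2.80 ± 0.61, adjusted p = 0.0028). The gains of p65, HDAC3, p300 and PGC1β were kept in every fit that left out 1 library.

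At -19.2 kb HDAC3 was 9.46 and 5.53 with Veh and 48.6 and 89.6 with KLA (log2 3.17 ± 0.52, adjusted p = 1.8e-08). p65 was 16.6 and 21.4 with Veh and 114 and 126 with KLA (log2 2.65 ± 0.32, adjusted p = 4.5e-05). p300 was 13.2 and 16.4 with Veh and 57.3 and 59.4 with KLA (log2 1.98 ± 0.33, adjusted p = 8.1e-05). PGC1β rose from 13.5 and 16.3 to 54.6 and 60.6 without solvent (log2 1.95 ± 0.37, adjusted p = 0.001), and from 14.6 and 33.5 to 162 and 155 with DMSO (log2 2.78 ± 0.44, adjusted p = 7.4e-05). The 2 PGC1β experiments used separate libraries and both called this element, and no library decided these 5 calls. NCoR did not pass at -19.2 kb (8.36 and 28.2 with Veh and 32.4 and 29.7 with KLA, log2 0.76 ± 0.54, adjusted p = 0.28). ERK1 was 1.57 and 9.25 with Veh and 39.3 and 23.1 with KLA (log2 2.41 ± 0.82, adjusted p = 0.07).

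The losses lay closer to the gene. At -14.3 kb p300 was 123 and 116 with Veh and 30.2 and 31.9 with KLA (log2 -1.94 ± 0.23, adjusted p = 2.0e-06). HDAC3 was 68.4 and 70.2 with Veh and 25.8 and 22.8 with KLA (log2 -1.49 ± 0.44, adjusted p = 0.0027, lost without Veh replicate 1 at adjusted p = 0.15 or Veh replicate 2 at adjusted p = 0.17). NCoR was 46.6 and 74.2 with Veh and 26.7 and 19.4 with KLA (log2 -1.39 ± 0.40, adjusted p = 0.015, lost without KLA replicate 1 at adjusted p = 0.073 or KLA replicate 2 at adjusted p = 0.17). PU.1 was 42.9 and 40.5 with Veh and 17.7 and 21.7 with KLA (log2 -1.08 ± 0.23, adjusted p = 2.1e-05, lost without KLA replicate 1 at log2 fold change -0.95), a call that TMM scaling did not keep. PU.1 also fell at -13.4 kb, from 64.1 and 62.2 to 20.9 and 19.8 (log2 -1.63 ± 0.22, adjusted p = 1.0e-10). p300 fell at -18.4 kb (log2 -1.37 ± 0.35, adjusted p = 0.0029), -14.7 kb (log2 -1.29 ± 0.32, adjusted p = 0.0025, lost without KLA replicate 2 at adjusted p = 0.059) and +0.7 kb (log2 -1.94 ± 0.52, adjusted p = 0.0043, lost without KLA replicate 1 at adjusted p = 0.1). At the +3.1 kb element the falls were smaller and reached no call. NCoR was 409.8 and 438 with Veh and 243 and 201 with KLA (log2 -0.94 ± 0.18, adjusted p = 0.0019). PU.1 was 428 and 408 with Veh and 264 and 239 with KLA (log2 -0.74 ± 0.08, adjusted p = 3.7e-14). p300 was 230.0 and 235 with Veh and 129.9 and 129.7 with KLA (log2 -0.84 ± 0.15, adjusted p = 0.00015, called with TMM scaling). HDAC3 was 357 and 309 with Veh and 166 and 270.5 with KLA there (log2 -0.63 ± 0.38, adjusted p = 0.19). At the promoter NCoR, HDAC3, PU.1 and p300 were not called, with p300 at 132 and 114 with Veh and 139 and 133 with KLA (log2 0.15 ± 0.17, adjusted p = 0.46). PGC1β rose at the promoter (32.3 and 27.4 with Veh and 89.6 and 45.2 with KLA, log2 1.14 ± 0.37, adjusted p = 0.03, lost without KLA replicate 1 at adjusted p = 0.17, Veh replicate 1 at adjusted p = 0.19 or Veh replicate 2 at adjusted p = 0.32), which TMM scaling did not keep. p65 was 117 and 109 with Veh and 187 and 203 with KLA at the promoter (log2 0.78 ± 0.21, adjusted p = 0.0067) and rose at -4.0 kb (52.5 and 51.3 with Veh and 147 and 146 with KLA, log2 1.497 ± 0.25, adjusted p = 0.00036), where TMM scaling did not keep the call.

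Csf2ra, the α chain that gives the GM-CSF receptor its ligand, had the fewest KLA calls: of 16 elements, +0.7 and +4.5 kb were lower for p300 and -2.3 kb was higher for p65. This depended on the scaling. With TMM scaling 4 of 7 p300 peaks were lower, and 1 peak each was lower for HDAC3, p65 and PGC1β without solvent. In mm10 the gene lies near the end of chromosome 19, with the strongest PU.1 peak at -16.5 kb (chr19:61244745-61245039, intergenic). p300 at +0.7 kb, in an intron, was 33.8 and 34.2 with Veh and 10.2 and 15.1 with KLA (log2 -1.42 ± 0.41, adjusted p = 0.0061, lost without KLA replicate 1 at adjusted p = 0.088). At +4.5 kb it was 13.2 and 19.1 with Veh and 5.63 and 5.94 with KLA (log2 -1.46 ± 0.52, adjusted p = 0.022, lost without KLA replicate 1 at adjusted p = 0.19, KLA replicate 2 at adjusted p = 0.17 or Veh replicate 2 at adjusted p = 0.088). p65 at -2.3 kb was 18.4 and 14.0 with Veh and 34.7 and 48.6 with KLA (log2 1.35 ± 0.44, adjusted p = 0.019, lost without KLA replicate 1 at adjusted p = 0.095 or KLA replicate 2 at adjusted p = 0.26), which is below the median of its table and was not called with TMM scaling. At -16.5 kb PU.1 was 327 and 359.7 with Veh and 272 and 303 with KLA (log2 -0.25 ± 0.08, adjusted p = 0.0055). p300 was 107 and 108 with Veh and 78.3 and 92.4 with KLA (log2 -0.33 ± 0.19, adjusted p = 0.14). At the promoter, in the first exon, PU.1 was 174 and 184 with Veh and 101 and 112 with KLA (log2 -0.75 ± 0.11, adjusted p = 2.8e-09). NCoR was 60.9 and 55.3 with Veh and 29.97 and 31.8 with KLA (log2 -0.91 ± 0.34, adjusted p = 0.047), both lower by less than 2-fold. PGC1β with DMSO was called at +1.1 kb (43.0 and 30.6 with Veh and 79.0 and 104 with KLA, log2 1.30 ± 0.45, adjusted p = 0.045, lost without DMSO KLA replicate 1 at adjusted p = 0.07, DMSO KLA replicate 2 at adjusted p = 0.23, DMSO Veh replicate 1 at adjusted p = 0.11 or DMSO Veh replicate 2 at adjusted p = 0.2), and not with TMM scaling.

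Csf2rb encodes the common β chain, and its near copy Csf2rb2 lies beside it, so that reads may be shared between the copies and the values are uncertain to that extent. With KLA the +8.6 kb element gained p65, p300 and NCoR, the -1.9 kb element gained p65, HDAC3, PGC1β and p300, and the -4.8 kb element lost NCoR. At +8.6 kb, the window with 2 NF-κB matches, p65 was 25.4 and 43.8 with Veh and 234 and 261 with KLA (log2 2.84 ± 0.28, adjusted p = 1.1e-05). p300 was 58.3 and 51.9 with Veh and 122 and 152 with KLA (log2 1.31 ± 0.20, adjusted p = 4.4e-05), a call not kept with TMM scaling. NCoR was 35.8 and 38.8 with Veh and 64.0 and 94.8 with KLA (log2 1.09 ± 0.33, adjusted p = 0.02, lost without KLA replicate 1 at adjusted p = 0.064 or KLA replicate 2 at adjusted p = 0.32). PU.1 was already strong and did not pass the test, at 198 and 239.6 with Veh and 199.5 and 198 with KLA (log2 -0.13 ± 0.09, adjusted p = 0.22). Fosl2 was 11.3 and 23.1 with Veh and 44.2 and 105 with KLA (log2 2.11 ± 0.89, adjusted p = 0.091), which TMM scaling called. PGC1β was called with DMSO (29.2 and 11.7 with Veh and 77.0 and 62.5 with KLA, log2 1.69 ± 0.50, adjusted p = 0.02, lost without DMSO KLA replicate 1 at adjusted p = 0.096 or DMSO Veh replicate 2 at adjusted p = 0.15) and not without solvent (31.1 and 19.99 with Veh and 19.7 and 32.0 with KLA, log2 0.06 ± 0.42, adjusted p = 0.94), and the DMSO call was not kept with TMM scaling.

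At -1.9 kb of Csf2rb HDAC3 was 16 and 25.4 with Veh and 48.1 and 100.1 with KLA (log2 1.77 ± 0.44, adjusted p = 0.00034, lost without Veh replicate 1 at adjusted p = 0.21 or Veh replicate 2 at adjusted p = 0.062). PGC1β was 5.88 and 4.18 with Veh and 35.0 and 20.02 with KLA (log2 2.42 ± 0.56, adjusted p = 0.004, lost without Veh replicate 2 at adjusted p = 0.053). p300 was 13.8 and 3.29 with Veh and 47.6 and 29.2 with KLA (log2 2.15 ± 0.52, adjusted p = 0.0018, lost without KLA replicate 1 at adjusted p = 0.075). p65 was 12.3 and 14.9 with Veh and 51.4 and 49.3 with KLA (log2 1.88 ± 0.42, adjusted p = 0.0023, lost without KLA replicate 1 at adjusted p = 0.065 or KLA replicate 2 at adjusted p = 0.055), and this was the call of the 4 that TMM scaling did not keep. At -8.9 kb p300 was 2.51 and 1.97 with Veh and 31.7 and 24.3 with KLA (log2 3.60 ± 0.58, adjusted p = 5.9e-05). At -4.8 kb NCoR was 63.3 and 67.1 with Veh and 26.7 and 20.8 with KLA (log2 -1.46 ± 0.35, adjusted p = 0.0069, lost without KLA replicate 1 at adjusted p = 0.056 or KLA replicate 2 at adjusted p = 0.12). PU.1 was 208 and 169.9 with Veh and 99.4 and 118 with KLA, under 2-fold (log2 -0.80 ± 0.11, adjusted p = 1.8e-10). No KLA experiment called the promoter. There PU.1 was 240.0 and 232 with Veh and 201 and 219 with KLA (log2 -0.17 ± 0.09, adjusted p = 0.091). p300 was 160.5 and 138 with Veh and 151 and 113 with KLA (log2 -0.18 ± 0.18, adjusted p = 0.4).

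Csf3r encodes the G-CSF receptor, and its upstream region gained binding of every factor profiled. At the -20.3 kb element (chr4:126003894-126004485, intergenic) all 8 factors were called higher with KLA, and all 8 calls were kept with TMM scaling. It was the only 1 of the 91 elements with a call in all 8 experiments. The ERK1 peak was joined to most of the other peaks by a step above 100 bp. With steps of 100 bp it stands apart from them, so a call of all 8 factors at 1 element depends on the 200 bp setting. p65 was 21.01 and 13.1 with Veh and 326 and 319 with KLA (log2 4.23 ± 0.27, adjusted p = 1.0e-06). p300 was 35.7 and 21.03 with Veh and 299 and 257 with KLA (log2 3.28 ± 0.22, adjusted p = 4.0e-09). PU.1 was 61.02 and 51.7 with Veh and 163 and 163 with KLA (log2 1.52 ± 0.13, adjusted p = 2.6e-20). The KLA libraries lay above the Veh libraries without overlap for each. PGC1β was 15.3 and 21.4 with Veh and 134 and 122 with KLA without solvent (log2 2.79 ± 0.32, adjusted p = 1.2e-05) and 21.1 and 39.3 with Veh and 142 and 207 with KLA with DMSO (log2 2.58 ± 0.38, adjusted p = 3.6e-05). NCoR had 2 peaks at this element, and at the larger 1 it was 38.2 and 43.5 with Veh and 209.8 and 197 with KLA (log2 2.31 ± 0.24, adjusted p = 9.6e-05). HDAC3 was 61.1 and 67.5 with Veh and 198 and 311 with KLA (log2 1.97 ± 0.37, adjusted p = 1.2e-06, lost without Veh replicate 1 at adjusted p = 0.14 or Veh replicate 2 at adjusted p = 0.1). Fosl2 was 38.1 and 47.2 with Veh and 196 and 349.5 with KLA (log2 2.67 ± 0.75, adjusted p = 0.0044, lost without Veh replicate 1 at adjusted p = 0.81 or Veh replicate 2 at adjusted p = 0.75). ERK1 was 3.15 and 3.47 with Veh and 44.3 and 35.4 with KLA (log2 3.52 ± 0.74, adjusted p = 0.015, lost without KLA replicate 1 at adjusted p = 0.12), the 1 member peak called for ERK1.

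Nearer to Csf3r, the promoter and a group of elements in the noncoding transcript Gm32908 also gained binding. At the promoter, in the first exon, p65 was 29.8 and 40.1 with Veh and 143 and 191 with KLA (log2 2.26 ± 0.29, adjusted p = 6.6e-05). p300 was 30.7 and 28.3 with Veh and 92.6 and 90.8 with KLA (log2 1.63 ± 0.25, adjusted p = 3.2e-05). HDAC3 was 40.7 and 34.8 with Veh and 82.6 and 189.7 with KLA (log2 1.81 ± 0.38, adjusted p = 1.9e-05, lost without Veh replicate 1 at adjusted p = 0.084 or Veh replicate 2 at adjusted p = 0.14). NCoR was 31.1 and 35.3 with Veh and 85.0 and 60.9 with KLA (log2 1.13 ± 0.34, adjusted p = 0.018, lost without KLA replicate 1 at adjusted p = 0.26 or KLA replicate 2 at adjusted p = 0.075). PU.1 was 82.7 and 77.2 with Veh and 129 and 101 with KLA there, under 2-fold (log2 0.52 ± 0.14, adjusted p = 0.00055), and all 4 promoter calls were kept with TMM scaling.

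At -7.8 kb of Csf3r p300 was 0 and 1.97 with Veh and 29.2 and 35.1 with KLA, a ratio of 33.3-fold with a 95% counting interval of 11.1 to 164 from 3 tags (adjusted p = 2.3e-05). At -8.6 kb it held no tag with Veh and 12.3 and 14.1 tags per 10 M with KLA, at least 13.7-fold higher against the floor of 3 tags over the group (adjusted p = 0.0001). At -22.7 kb p300 was 4.39 and 1.97 with Veh and 60.4 and 53.0 with KLA (log2 4.11 ± 0.46, adjusted p = 1.5e-06). HDAC3 was 7.27 and 2.77 with Veh and 28.1 and 54.4 with KLA (log2 3.01 ± 0.65, adjusted p = 2.8e-05). HDAC3 and p300 also rose at -5.9 kb, to 44.5 and 72.0 from 9.46 and 9.40 (log2 2.58 ± 0.52, adjusted p = 6.5e-06) and to 30.7 and 42.7 from 10.7 and 9.20 (log2 1.88 ± 0.42, adjusted p = 0.001, lost without KLA replicate 2 at adjusted p = 0.052). PU.1 was strongest at the -5.5 kb element, and PU.1 did not pass the test there (345 and 358 with Veh and 369 and 373 with KLA, log2 0.08 ± 0.08, adjusted p = 0.38). p65 rose at -5.5 kb (39.4 and 68.1 with Veh and 181 and 209 with KLA, log2 1.86 ± 0.28, adjusted p = 0.0002), which TMM scaling did not keep.

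To ask whether recruitment depends on ERK, NCoR and PGC1β were compared between KLA with and without LY3214996. NCoR was lower with ERKi at 23 of 49 member peaks and higher at 1, against 48.6% and 0.634% of all peaks, so that the members moved with their table, whose median was -1.20. With TMM scaling 1 was lower and 4 were higher. The ERKi libraries carry a later library date in their descriptions than the KLA libraries, and the labels of these KLA libraries name no solvent. Effects of ERKi, date and solvent cannot be told apart. At Csf3r -20.3 kb NCoR was 211 and 199.9 tags per 10 M with KLA and 74.4 and 67.2 with ERKi and KLA (log2 -1.54 ± 0.23, adjusted p = 0.00027). This left it above the 38.2 and 43.5 of Veh cells, and TMM scaling gave -0.37 with no call. Csf2ra +1.7 kb was the 1 lower call that TMM scaling kept, at 47.0 and 39.4 with KLA and 4.23 and 4.31 with ERKi (log2 -3.30 ± 0.56, adjusted p = 0.00052, TMM -2.15). At Csf2 +12.7 kb NCoR fell from 202 and 177 to 101 and 82.7 (log2 -1.04 ± 0.25, adjusted p = 0.0039, lost without ERKi KLA replicate 2 at log2 fold change -0.91 or KLA replicate 1 at adjusted p = 0.066), a direction that TMM scaling turned to 0.12. The Csf1 -13.7 kb element, which KLA had lowered, was the member peak that rose with ERKi, from 30.8 and 22.8 to 39.7 and 74.1 (log2 1.09 ± 0.32, adjusted p = 0.011, lost without ERKi KLA replicate 2 at adjusted p = 0.17 or KLA replicate 2 at adjusted p = 0.12), still far below the 332 and 393 of Veh cells.

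PGC1β with ERKi was higher at 1 of 47 member peaks and lower at none (0.108% and 0.178% of all peaks). That peak was Csf1 -15.5 kb, where PGC1β was 0 and 7.29 with DMSO and Veh, 1.97 and 0 with DMSO and KLA, and 68.8 and 51.7 with ERKi and KLA. The ratio was 70.1-fold with a 95% counting interval of 12.2 to 2800 from 1 tag in the DMSO and KLA libraries (adjusted p = 0.039), and the call was lost without DMSO KLA replicate 1 at adjusted p = 0.099, DMSO KLA replicate 2 at adjusted p = 0.13, DMSO Veh replicate 1 at adjusted p = 0.051, ERKi KLA replicate 1 at adjusted p = 0.18 or ERKi KLA replicate 2 at adjusted p = 0.11. At Csf1r -19.2 kb PGC1β was 162 and 155 with DMSO and KLA and 48.5 and 55.6 with ERKi and KLA (log2 -1.60 ± 0.41, adjusted p = 0.079). At Csf3r -20.3 kb it was 142 and 207 and 109.5 and 138 (log2 -0.50 ± 0.34, adjusted p = 0.53). Neither was called.

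H3K27ac regions at the members lay mainly at Csf2ra (21 of 40 rows), with 7 at Csf1r, 4 at Csf3, 3 at Csf2rb, 2 each at Csf1 and Csf2, and 1 at Csf3r. In the NCoR experiment, which asks whether acetylation needs NCoR, 16 member rows were listed, of which 10 reached the tag minimum. Csf3 +8.1 kb was the member region whose KLA response differed by genotype. In WT it held 15.1 and 15.8 tags per 10 M with Veh and 67.3 and 75.8 with KLA. NKO cells held 50.1 and 45.9 with Veh and 32.9 and 26.4 with KLA. The 4 groups did not overlap. The region rose with KLA in WT (log2 2.20 ± 0.31, adjusted p = 5.7e-07) and did not pass in NKO (log2 -0.68 ± 0.30, adjusted p = 0.12). NKO exceeded WT with Veh (log2 1.63 ± 0.32, adjusted p = 0.0026, lost without Veh replicate 1 at adjusted p = 0.097 or Veh replicate 2 at adjusted p = 0.13) and lay below it with KLA (log2 -1.26 ± 0.29, adjusted p = 0.016, lost without NKO KLA replicate 1 at adjusted p = 0.067, NKO KLA replicate 2 at adjusted p = 0.17 or KLA replicate 2 at adjusted p = 0.13). The interaction was log2 -2.88 ± 0.43, adjusted p = 0.00015, and all 4 calls were kept with TMM scaling.

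Over the 10 member regions tested in that experiment, KLA raised 1 and lowered none in WT (6.49% and 3.72% of all regions), and raised none and lowered 2 in NKO (2.75% and 7.96%). NKO was higher than WT at 1 and lower at none with Veh (0.973% and 0.0270%). With KLA it was higher at none and lower at 1 (0.400% and 0.389%), and the interaction was positive at none and negative at 1 (0.0270% and 0.670%). The 2 regions lower in NKO with KLA were Csf1r -14.9 kb, at 30.2 and 16.3 with Veh and 5.84 and 5.56 with KLA (log2 -1.999 ± 0.56, adjusted p = 0.01, lost without NKO KLA replicate 1 at adjusted p = 0.061, NKO KLA replicate 2 at adjusted p = 0.063 or NKO Veh replicate 1 at adjusted p = 0.2), and Csf1r -6.4 kb (log2 fold change -1.0001, adjusted p = 0.0497), which no fit without 1 library kept. At Csf1r +3.1 kb the mark was 103 and 107 in WT with Veh and 116 and 173 with KLA (log2 0.45 ± 0.18, adjusted p = 0.081), and its interaction was not called (log2 -0.76 ± 0.26, adjusted p = 0.15). At Csf2ra +0.7 kb it was 178 and 214 and 240.2 and 315 in WT, under 2-fold (log2 0.50 ± 0.14, adjusted p = 0.01).

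In the HDAC3 inhibitor experiment, where the regions were 1000 bp windows, KLA with DMSO raised 1 and lowered none of 12 member regions (6.73% and 28.1% of all regions), and RGFP966 with KLA raised 3 and lowered none compared with DMSO and KLA (26.9% and 9.53%). Csf1 -21.0 kb, an element from which KLA removed NCoR and HDAC3, held 9.14 and 5.23 tags per 10 M with DMSO and Veh, 7.12 and 14.3 with DMSO and KLA, and 52.0 and 54.2 with RGFP966 and KLA (log2 2.35 ± 0.36, adjusted p = 2.2e-09). Csf2 +12.7 kb held 4.98 and 6.98, then 25.3 and 5.05, then 50.7 and 63.0 (log2 1.82 ± 0.33, adjusted p = 2.8e-07). Its KLA call with DMSO (log2 1.41 ± 0.48, adjusted p = 0.008, lost without DMSO KLA replicate 1 at adjusted p = 0.81 or DMSO Veh replicate 1 at adjusted p = 0.11) pointed the other way without DMSO KLA replicate 1 (log2 fold change -0.23). Csf2ra -2.3 kb held 27.2 and 10.9 with DMSO and KLA and 70.4 and 54.9 with RGFP966 and KLA (log2 1.66 ± 0.30, adjusted p = 3.2e-07). The 3 regions that rose with RGFP966 were all weakly marked without it, but other weakly marked regions were not called. Csf2ra -38.2 kb held 14.9 and 5.05 with DMSO and KLA and 15.1 and 19.6 with RGFP966 and KLA. Csf2ra -37.1 kb held 39.5 and 32.8 with DMSO and KLA and 40.8 and 35.9 with RGFP966 and KLA. Of the strongly marked regions, the Csf1r promoter, at 369 and 280.2 and 372 and 336, did not pass the test (log2 0.12 ± 0.19, adjusted p = 0.59), nor did Csf2ra -16.5 kb (log2 -0.02 ± 0.20, adjusted p = 0.94). Others were lower by less than 2-fold, with Csf1r +3.1 kb at 567 and 438 and 396 and 343 (log2 -0.45 ± 0.19, adjusted p = 0.031) and Csf2ra +0.7 kb at 615 and 472 and 367 and 309 (log2 -0.69 ± 0.19, adjusted p = 0.0008), the second called lower with TMM scaling.

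In the Pgc1b experiment edgeR called no member region with KLA in Pgc1b flox cells, where 5 of 12 had an unadjusted p below 0.05 and TMM scaling or DESeq2 called 2 (5.22% higher and 25.6% lower over all regions). In Pgc1b flox Cre cells 1 of 12 was higher and 3 were lower (4.18% and 32.5%). No member region passed in edgeR between the genotypes with Veh, with 0 at an unadjusted p below 0.05 and 0 in DESeq2 (0.107% and 0.290%). With KLA 4 regions were lower in Pgc1b flox Cre and none higher (6.81% and 0.702%), and 2 interactions were negative and none positive (4.60% and 0.770%). The Csf1r promoter held 462 and 461 in Pgc1b flox with Veh and 298 and 338 with KLA. The Pgc1b flox Cre values were 412 and 413 with Veh and 150.2 and 142 with KLA. The Pgc1b flox Cre cells with KLA were the low group, without overlap (log2 -1.12 ± 0.10, adjusted p = 2.5e-25). Csf1r +3.1 kb held 521 and 518 in Pgc1b flox with Veh and 514 and 534 with KLA. The Pgc1b flox Cre values were 535 and 494 with Veh and 271 and 248 with KLA, again with only the last group low (log2 -1.02 ± 0.08, adjusted p = 1.5e-31, lost without flox Cre KLA replicate 2 at log2 fold change -0.95 or flox KLA replicate 2 at log2 fold change -0.99). Its interaction was log2 -1.002 ± 0.11, adjusted p = 1.0e-16, lost without flox Cre KLA replicate 2 at log2 fold change -0.94, flox Cre Veh replicate 1 at log2 fold change -0.94, flox KLA replicate 2 at log2 fold change -0.98 or flox Veh replicate 2 at log2 fold change -0.998, while that of the promoter was log2 -0.96 ± 0.13, adjusted p = 5.1e-11, just under 2-fold. Csf3 +9.4 kb held 63.4 and 61.7 in Pgc1b flox with Veh and 57.6 and 75.1 with KLA. The Pgc1b flox Cre values were 46.1 and 58.4 with Veh and 30.3 and 20.8 with KLA (log2 -1.38 ± 0.25, adjusted p = 5.9e-07; interaction log2 -1.12 ± 0.34, adjusted p = 0.0098, lost without flox Cre KLA replicate 2 at adjusted p = 0.12, flox Cre Veh replicate 2 at adjusted p = 0.095 or flox KLA replicate 2 at adjusted p = 0.088). The fourth region, Csf2ra -37.1 kb, was also lower (log2 -1.02 ± 0.26, adjusted p = 0.00049, lost without flox Cre KLA replicate 2 at log2 fold change -0.95 or flox KLA replicate 1 at log2 fold change -0.81). With TMM scaling none of these differences between genotypes was called: the Csf1r promoter gave -0.73, Csf1r +3.1 kb -0.62 and Csf3 +9.4 kb -0.99, as the table median of this comparison was -0.38. Csf2 +12.7 kb was the region that rose with KLA in Pgc1b flox Cre, at 9.54 and 19.4 in Pgc1b flox with Veh and 27.6 and 19.8 with KLA. The Pgc1b flox Cre values were 8.73 and 8.62 with Veh and 24.6 and 21.5 with KLA (log2 1.40 ± 0.45, adjusted p = 0.0041).

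**Figure D4:**
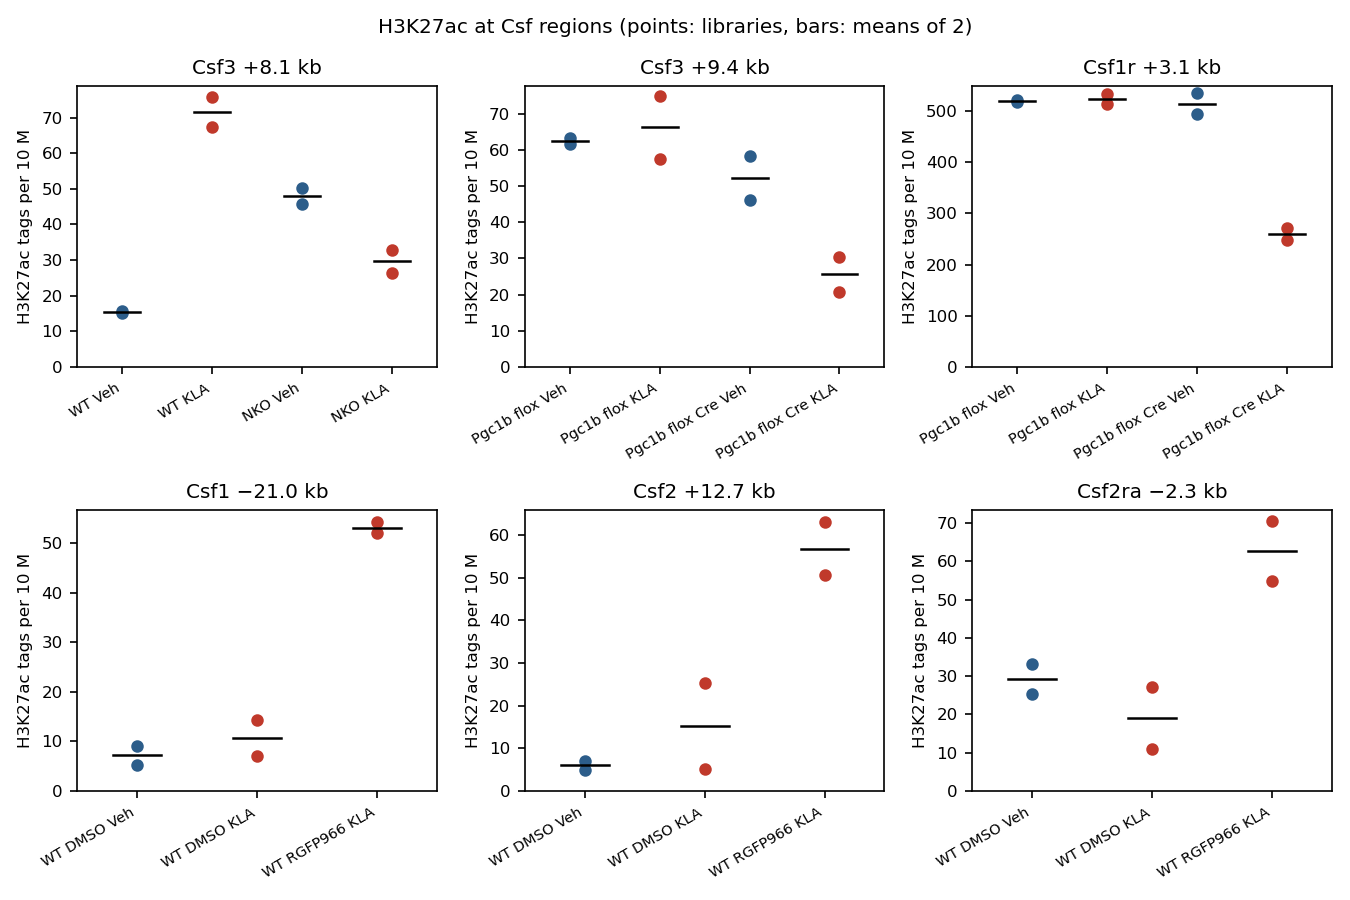
H3K27ac tags per 10 M (vertical axis from 0) of each library (points) and group means of 2 libraries (horizontal bars) at 6 member regions. The Csf3 +8.1 kb means are highest for WT with KLA and next for NKO with Veh, and Csf1r +3.1 kb is lowest for Pgc1b flox Cre with KLA.

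During osteoclast differentiation, which needs M-CSF as well as RANKL, p300 was higher at day 4 than at day 0 at 11 of 20 member peaks and lower at none, against 62.2% and 0.248% of all peaks. The table median was 1.84, so most peaks of the table were higher at day 4, and with TMM scaling 1 member peak was higher and 2 were lower. The count fell without either day 4 replicate, a fit that leaves 1 library at day 4, and the calls of the whole table fell as well. Csf1r held 7 of the 11 called peaks. At Csf1r -18.4 kb p300 was 3.52 and 0 tags per 10 M at day 0 and 70.4 and 57.9 at day 4 (log2 4.66 ± 0.75, adjusted p = 0.00056), the 1 gain that TMM scaling kept (3.07). At -4.0 kb it was 4.395 and 4.26 tags per 10 M at day 0 and 52.8 and 39.7 at day 4 (log2 3.37 ± 0.69, adjusted p = 0.0017, lost without day 4 replicate 1 at adjusted p = 0.17). At -14.3 kb, where KLA had lowered p300 in BMDMs, it was 0.879 and 0 tags per 10 M at day 0 and 22.5 and 32.9 at day 4, a ratio of 43.9-fold with a 95% counting interval of 7.54 to 1767 from 1 tag at day 0 (adjusted p = 0.0011, lost without day 4 replicate 1 at adjusted p = 0.17 or day 4 replicate 2 at adjusted p = 0.36). At the Csf1r promoter it was 23.7 and 27.7 tags per 10 M at day 0 and 91.9 and 54.4 at day 4 (log2 1.53 ± 0.46, adjusted p = 0.012, lost without day 4 replicate 1 at adjusted p = 0.39 or day 4 replicate 2 at adjusted p = 0.071). At +3.1 kb it was 33.4 and 49.0 tags per 10 M at day 0 and 82.1 and 83.9 at day 4 (log2 1.05 ± 0.39, adjusted p = 0.032, lost without day 0 replicate 1 at adjusted p = 0.088, day 4 replicate 1 at adjusted p = 0.31 or day 4 replicate 2 at adjusted p = 0.32), both below the table median. Csf1 had 3 of the other called peaks and Csf2rb +4.9 kb was the fourth. Csf3 +7.4 kb was 23.7 and 25.5 tags per 10 M at day 0 and 10.8 and 17.0 at day 4 (log2 -0.82 ± 0.62, adjusted p = 0.24) and was called lower with TMM scaling, as was Csf2rb -4.8 kb (21.98 and 36.2 tags per 10 M at day 0 and 14.7 and 12.5 at day 4, log2 -1.03 ± 0.63, adjusted p = 0.16). No p300 peak was listed at Csf2 or Csf2ra in this table. Start sites of 3 of 6 osteoclast markers (Acp5, Ctsk and Mmp9) held p300 peaks, as did 4 of 6 in BMDMs (Ctsk, Dcstamp, Mmp9 and Ocstamp). The summed p300 level at these markers was 76.5 to 97.9 at day 0 and 349 to 379 at day 4. This rise should be read against the table median of log2 1.84, and whether it exceeds that median was not tested. In BMDMs the summed level was 113 to 118 with Veh and 169.7 to 183 with KLA.

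ERK1 was called at none of 14 member peaks between day 4 and day 0 with edgeR or DESeq2, with 4 at an unadjusted p below 0.05 (2.33% of all peaks were higher and 0.0267% lower), while the member median was 1.01 and the table median 1.0001. At Csf2rb +4.9 kb, for example, ERK1 was 5.17 and 4.20 at day 0 and 29.6 and 21.5 at day 4 (log2 2.40 ± 0.80, adjusted p = 0.077). The descriptions give day 4 replicate 2 a later library date than the other 3 libraries. Those 3 also carry the tag NCoRWT in their descriptions, which day 4 replicate 2 lacks, while the titles call all of them WT. Whether this tag marks a different genotype was not tested. At Csf1r -4.0 kb ERK1 was 25.8 and 17.9 at day 0 and 34.2 and 93.2 at day 4 (log2 1.54 ± 0.60, adjusted p = 0.1). Within the earlier date, which leaves 1 library at day 4, no peak of the whole table was called, and none was called without day 4 replicate 1 either.

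**Figure D5:**
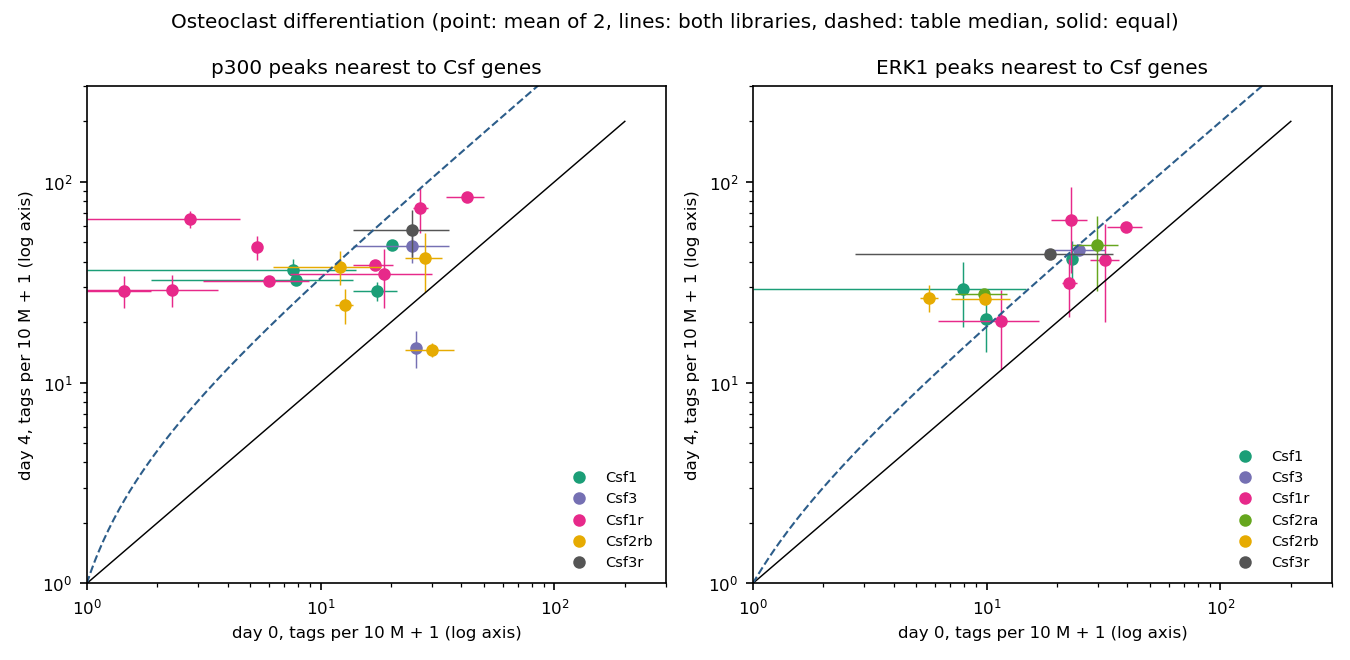
Mean tags per 10 M + 1 at day 4 (vertical log axis) against day 0 (horizontal log axis) for member peaks of p300 and ERK1, with lines spanning both libraries, a solid line for equal values and a dashed line at the table median. All p300 points other than Csf3 +7.4 kb and Csf2rb -4.8 kb lie above the solid line.

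Motif matches in the 200 bases around peak centres were counted for the members outside Csf1r and for all peaks of the other chromosomes, as the chromosome of Csf1r was not searched. An NF-κB match was present in 7 of 29 member p65 peaks, compared with 20.8% of 51130 p65 peaks. Of the 17 member p65 peaks called higher, 6 held it, and of the 12 not called, 1 did. A PU.1 match was present in 12 of 32 member PU.1 peaks (36.5% of 49333), and an AP-1 match in 1 of 16 member Fosl2 peaks (28.7% of 30383). Of 50 member p300 peaks 11 held an NF-κB match (17.0% of 65999), 8 of them among the 24 called higher. The share of matches among all peaks called higher was not counted, so these splits by call have no background. In RefSeq promoter windows of 300 bases, an NF-κB match was found in Csf1, Csf2 and Csf3r of the 4 members in the table, and in 18.5% of 32851 promoters. These are letter matches and not measured binding sites.

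Summed over all peaks of a gene, p65 was higher with KLA at Csf2 (log2 2.30 ± 0.20, adjusted p = 9.1e-09), Csf3r (log2 2.22 ± 0.17, adjusted p = 2.1e-09), Csf3 (log2 2.07 ± 0.21, adjusted p = 8.4e-08), Csf1 (log2 1.57 ± 0.20, adjusted p = 9.5e-07) and Csf2rb (log2 1.05 ± 0.16, adjusted p = 1.4e-05), where the median over all genes was 1.03. Csf1 and Csf2rb did not keep this call with TMM scaling. The total for NCoR fell at Csf1 (log2 -1.09 ± 0.16, adjusted p = 2.7e-06) and rose at Csf3r (log2 1.17 ± 0.18, adjusted p = 6.5e-06), and both were kept. HDAC3 rose at Csf3r (log2 1.31 ± 0.38, adjusted p = 0.0037). p300 rose at Csf3 (log2 1.98 ± 0.12, adjusted p = 2.3e-10), Csf3r (log2 1.82 ± 0.13, adjusted p = 2.4e-09) and Csf2 (log2 1.46 ± 0.17, adjusted p = 8.4e-07). PU.1 totals moved by less than 2-fold at every member, from -0.47 at Csf1 to 0.41 at Csf3r. PGC1β rose at Csf3r without solvent (log2 1.67 ± 0.26, adjusted p = 7.9e-09) and with DMSO (log2 2.09 ± 0.28, adjusted p = 1.5e-11), and with ERKi it was higher at Csf1 (log2 1.01 ± 0.24, adjusted p = 0.004). ERK1 reached a call at Csf3r (log2 1.02 ± 0.27, adjusted p = 0.0086) that TMM scaling did not keep.

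Of 37 other genes of the pathway (cytokines and receptors that share chains, JAK and STAT factors, SOCS inhibitors, Src family kinases, adaptors, phosphatases and the lineage factors that control Csf1r), the strongest peak of each was also counted for the KLA response. The share of all rows of the table that was called higher and lower, and the 2 counts with TMM scaling, stand beside each. p65 had 24 of 35 higher and 1 lower (all rows 57.0% and 5.43%, TMM 14 and 4). p300 had 12 of 36 higher and 1 lower (all rows 42.1% and 12.9%, TMM 7 and 1). HDAC3 had 8 of 35 higher and 3 lower (all rows 27.5% and 11.3%, TMM 6 and 5), and NCoR 6 of 35 higher and 6 lower (all rows 23.4% and 16.7%, TMM 6 and 6). PU.1 had 1 of 35 higher and 3 lower (all rows 4.53% and 21.7%, TMM 2 and 1), and Fosl2 6 of 33 higher and 0 lower (all rows 11.4% and 4.19%, TMM 8 and 0). ERK1 had 3 of 33 higher and 1 lower (all rows 10.3% and 2.53%, TMM 3 and 2), and PGC1β without solvent 4 of 37 higher and 1 lower (all rows 16.4% and 6.35%, TMM 4 and 1). With ERKi, NCoR had 0 of 35 higher and 22 lower (all rows 0.634% and 48.6%, TMM 0 and 3), and PGC1β 0 of 34 higher and 0 lower (all rows 0.108% and 0.178%, TMM 0 and 0). By locus total, the feedback inhibitor Socs3 and the kinase Jak2, which the GM-CSF and G-CSF receptors use, rose for NCoR, HDAC3 and p300. For NCoR the log2 changes were 1.13 at adjusted p = 1.8e-06 and 1.42 at adjusted p = 8.2e-08. For HDAC3 they were 1.30 at adjusted p = 0.0053 and 1.65 at adjusted p = 0.00022. For p300 they were 2.12 at adjusted p = 1.6e-12 and 2.45 at adjusted p = 1.3e-11. All were kept with TMM scaling. The medians over all genes were -0.016 for NCoR, 0.17 for HDAC3 and 0.32 for p300. Socs3 and Jak2 were picked from the list. Other genes of the list also rose for the same factors, and some fell for NCoR. PU.1 fell at Cebpa (-1.32 at adjusted p = 4.2e-31), a factor of the myeloid lineage, a call that TMM scaling did not keep. In H3K27ac, the strongest region had 6 of 31 higher and 2 lower (all rows 6.49% and 3.72%, TMM 4 and 3) in WT and 4 of 31 higher and 3 lower (all rows 2.75% and 7.96%, TMM 6 and 1) in NKO. It had 7 of 31 higher and 3 lower (all rows 6.73% and 28.1%, TMM 11 and 2) with DMSO and 1 of 31 higher and 4 lower (all rows 26.9% and 9.53%, TMM 0 and 12) with RGFP966. It had 2 of 31 higher and 3 lower (all rows 5.22% and 25.6%, TMM 8 and 2) in Pgc1b flox and 3 of 31 higher and 6 lower (all rows 4.18% and 32.5%, TMM 10 and 3) in Pgc1b flox Cre. At day 4 p300 had 15 of 27 higher and 0 lower (all rows 62.2% and 0.248%, TMM 1 and 1), and ERK1 1 of 28 higher and 0 lower (all rows 2.33% and 0.0267%, TMM 0 and 0).

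The genes whose locus totals moved most like those of a member were found among 6896 genes tested in all 8 KLA experiments, by the mean absolute difference of log2 fold changes. For Csf3r these were Mrpl57 (0.139), Bc1 (0.151), Slamf7 (0.164), and for Csf3 F10 (0.108), Dusp23 (0.144), Ltbp1 (0.167). For Csf2 they were N4bp1 (0.0704), Creb3l1 (0.121), Akr1e1 (0.122), and for Csf1 Prkab1 (0.183), Adipor1 (0.185), Nron (0.187). For Csf1r they were Bri3 (0.118), Ncs1 (0.124), Rab7b (0.135), for Csf2ra Rpa2 (0.125), Foxred2 (0.126), Ankrd13d (0.129) and for Csf2rb Bin1 (0.0843), Ifnar1 (0.0938), Actb (0.119). No member was among the closest genes of another.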

How the data were processed

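ChIP-seq libraries of Wild type, NCoR and PGC1b BMDMs and of osteoclast cultures were used, as 35 groups of 2 libraries. The authors aligned single-end reads to mm10 with Bowtie2, called IDR peaks with HOMER, merged them over conditions and counted tags, keeping at most 3 tags at 1 position. The deposited tables hold these raw tag counts per peak and annotate the nearest gene. H3K27ac was counted at accessible or factor-bound regions. Versions of the authors' tools are not given in the sources used here. Factors were fixed with DSG and formaldehyde and H3K27ac with formaldehyde alone. The libraries of 30 inputs were not analysed here, so no background was subtracted.

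Each table was fitted whole with the edgeR quasi-likelihood test (edgeR 4.0.16, R 4.3.3), with library sizes set to the header totals (4.30 to 21.5 M tags), after keeping rows with at least 4 tags (H3K27ac 16) in 1 library. Rows were called at a Benjamini-Hochberg adjusted p below 0.05 over all rows tested and a change above 2-fold. The SE of a log2 fold change was taken from the F statistic. Sequences were read with pyfaidx 0.9.0.4, and figures used matplotlib 3.10.9. All 501 member rows lay within 10 bp of the distance to a start site of the reference annotation. Alternatives were TMM, DESeq2 size factors, the DESeq2 1.42.0 Wald test, no filter, filterByExpr, no fold minimum, a replicate block and each library left out, where the lone library is assumed to vary like the others. The code was tested on simulated data.

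The members and lists were chosen with earlier results of these data known. The peaks named by rule were, for each member and table, the strongest peak, the peak nearest to the start site within 1000 bp, the called peak with the lowest p in each direction and the element with peaks in the most factor tables. Other peaks described were chosen after their values were seen. The methods call the replicates biological, and the labels do not tie them to animals, so p-values measure the spread between these libraries. Comparisons of 1 factor share Veh or KLA libraries, and the NCoR Veh and KLA libraries occur in 2 tables. No pairing by replicate number was detected: 31 correlations of deviations between same-numbered libraries lay between -0.027 and 0.028. The deviations of single libraries include counting noise, so these values cannot show whether same-numbered libraries share an animal or a day. Intervals of ratios cover counting error only, at 95%. Columns of other series numbered 0. A locus total of 1 pathway gene is not reported here.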

Additional observations from a re-analysis of the deposited data

Results flagged for a closer look

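In 3 member regions the H3K27ac response to KLA differed between genotypes by the test of the interaction itself (edgeR quasi-likelihood test). At Csf3 +8.1 kb the log2 response was 2.20 in WT and -0.68 in NKO, and the interaction was -2.88 (adjusted p = 0.00015), with both libraries of each group on the same side. At Csf3 +9.4 kb the interaction of Pgc1b flox Cre and KLA was -1.12 (adjusted p = 0.0098), which TMM scaling moved under 2-fold. At Csf1r +3.1 kb that interaction was -1.002 (adjusted p = 1.0e-16), which lay at the 2-fold threshold and which TMM scaling also moved under it. Single samples that stand apart were not tested for in groups of 2 libraries. Causes of these differences were not tested.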

How the results depend on the processing

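The counts of called member peaks stayed within 1.5 times the reported count in 16 of 25 comparisons with TMM scaling, in 16 with DESeq2 size factors, in 13 with the DESeq2 Wald test, in 24 with no filter and in 17 without the fold minimum. With TMM scaling, size factors and the Wald test alike, the count became 5 for Fosl2, 3 for PGC1β with DMSO, 5 for NCoR with ERKi, 1 for H3K27ac in NKO, 2 in Pgc1b flox, 1 in Pgc1b flox Cre, 0 for Pgc1b flox Cre against Pgc1b flox with KLA and 0 for the Pgc1b interaction. For p300 at day 4 these gave 3, 4 and 1. The Wald test alone gave 2 for ERK1, 0 for PGC1β with ERKi and 0 for H3K27ac with DMSO. No filter and filterByExpr gave 1 for H3K27ac in NKO. Without the fold minimum the counts were 29 for PU.1 and, for H3K27ac, 3 in WT, 3 with DMSO, 8 with RGFP966, 4 in Pgc1b flox, 7 in Pgc1b flox Cre, 7 for the genotypes with KLA and 6 for the Pgc1b interaction. The replicate block gave 0 for Fosl2, 0 for PGC1β with ERKi, 6 for p300 at day 4 and 1 for H3K27ac in NKO, with all other counts within 1.5 times, and of 78 named peak calls 71 were kept with the block.

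Leaving out 1 library gave 6 to 23 for NCoR, 8 to 22 for HDAC3, 12 to 23 for p65, 0 to 7 for Fosl2, 5 to 6 for PU.1, 3 to 12 for PGC1β, 3 to 8 with DMSO, 0 to 1 with ERKi, 16 to 25 for NCoR with ERKi, 0 to 3 for ERK1, 26 to 35 for p300, 0 to 1 for ERK1 at day 4 and 1 to 13 for p300 at day 4. For H3K27ac it gave 1 to 2 in WT, 0 to 1 in NKO, 0 to 1 for NKO against WT with Veh, 0 to 1 with KLA, 1 to 3 for their interaction, 0 to 2 with DMSO, 3 to 5 with RGFP966, 0 to 1 in Pgc1b flox, 3 to 5 in Pgc1b flox Cre, 0 between these genotypes with Veh, 2 to 4 with KLA and 0 to 3 for their interaction.

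Of the 78 named peak calls, 58 were kept with TMM scaling, 58 with size factors and 53 with the Wald test. Directions turned at Csf2 +12.7 kb for NCoR with ERKi (-1.04, then 0.12 with TMM, 0.13 with size factors and 0.13 with the Wald test) and for H3K27ac with DMSO (1.41, then -0.23 without DMSO KLA replicate 1 and up to 2.07 without another library). Locus totals turned for NCoR with ERKi at Csf1r (0.015 with TMM, 0.014 with size factors) and Csf3 (0.080 and 0.079), and for p300 at day 4 at Csf1 (-0.093 and -0.064). These scalings centre the bulk of the peaks on 0 by construction, and which scaling is closer to the binding was not tested. With 2 libraries a group, the depth limited calls mainly at elements of few tags, where a single library often decided the call.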
